A study of Homo sapiens with 2 samples.

Results

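T-cell receptor gene segments were examined in REH and 697, established human cell lines of acute lymphoblastic leukemia from B-cell precursors (BCP-ALL). The members were all genes in the files that GENCODE 44 types as T-cell receptor V, D, J or constant genes, grouped by locus from their symbols (TRA, TRB, TRG and TRD for the alpha, beta, gamma and delta chains). This gave 170 of the 57773 genes in the files, namely 99 TRA, 44 TRB, 16 TRG and 11 TRD segments, or 91 V, 3 D, 71 J and 5 constant genes. REH is positive for the ETV6/RUNX1 fusion, with its remaining ETV6 allele deleted, whereas 697 is negative for this fusion. Both lines were grown untreated in RPMI medium with serum, and total RNA of each was sequenced as 1 library. Since each group is a single line with a single library, the fusion, every other difference between the lines and the preparation of the libraries cannot be told apart, and no test between the lines was possible.

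A T-cell receptor gene is assembled in developing T cells when the RAG recombinase joins a V segment, for the beta and delta chains a D segment, and a J segment, after which splicing attaches the constant exons. The alpha and beta chains form the receptor of most T cells, and the gamma and delta chains that of gamma delta T cells, each pair on the cell surface with the CD3 proteins. B-cell precursors express the same recombinase while they assemble immunoglobulin genes, and rearranged TRG and TRD genes are well known in BCP-ALL, where they serve to track residual disease. Unrearranged segments can also be transcribed, and gene counts do not tell such transcripts from rearranged ones.

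The germline sequences of the TRD D segments and the TRG J segments are shown first, because segment length and shared sequence bear on what a gene count can hold. These are the coding sequences of GENCODE 44 on GRCh38, read 5′ to 3′. The 3 TRD D segments span 8 to 13 bases and the 71 J segments 46 to 69 bases, with a median of 60, against a median of 395 bases of exon for the V segments.
TRDD1: gaaatagt
TRDD2: ccttcctac
TRDD3: actgggggatacg
TRGJ1: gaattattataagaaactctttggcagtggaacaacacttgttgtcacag
TRGJ2: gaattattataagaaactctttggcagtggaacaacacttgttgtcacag
TRGJP: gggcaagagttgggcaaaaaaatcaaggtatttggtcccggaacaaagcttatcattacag
TRGJP1: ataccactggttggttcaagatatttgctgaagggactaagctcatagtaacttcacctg
TRGJP2: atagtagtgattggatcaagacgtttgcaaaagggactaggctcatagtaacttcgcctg
TRGJ1 and TRGJ2 are identical over all 50 bases, so a read lying within either has no unique place and was not counted. TRGJP1 and TRGJP2 share 81.7% of their bases. A read spliced from a J segment to constant exons touches 2 genes, which the gene counter classes as ambiguous and leaves out of both.

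The V segments on which the results turn are shown by the last 100 bases of their coding part. Capitals run from the codon of the cysteine that closes the V domain to the 3′ end, the stretch where V is joined to D or J.
TRGV9: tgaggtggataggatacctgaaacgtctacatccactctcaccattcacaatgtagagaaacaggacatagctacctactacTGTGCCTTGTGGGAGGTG
TRGV2: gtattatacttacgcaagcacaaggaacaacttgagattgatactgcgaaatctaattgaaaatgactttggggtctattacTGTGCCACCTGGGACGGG
TRGV4: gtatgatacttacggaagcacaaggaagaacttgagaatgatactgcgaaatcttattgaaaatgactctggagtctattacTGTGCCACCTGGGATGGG
TRGV3: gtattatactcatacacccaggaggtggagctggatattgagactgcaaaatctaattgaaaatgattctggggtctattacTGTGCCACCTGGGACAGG
TRGV5: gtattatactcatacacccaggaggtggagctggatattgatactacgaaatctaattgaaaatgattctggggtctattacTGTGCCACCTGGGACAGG
TRGV8: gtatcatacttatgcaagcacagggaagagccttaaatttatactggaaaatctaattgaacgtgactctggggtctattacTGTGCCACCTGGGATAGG
TRDV2: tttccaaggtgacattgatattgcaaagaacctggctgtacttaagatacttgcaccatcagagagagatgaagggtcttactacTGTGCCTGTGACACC
TRBV20-1: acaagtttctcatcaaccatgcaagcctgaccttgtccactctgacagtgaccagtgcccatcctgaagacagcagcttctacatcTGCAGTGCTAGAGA
TRGV1, TRGV2, TRGV3, TRGV4, TRGV5 and TRGV8 belong to the same TRG V subgroup, and their coding parts shared 85.0% to 96.0% of aligned positions over 15 pairs. The closest were TRGV3 with TRGV5 (96.0%) and TRGV2 with TRGV4 (95.8%). TRGV9 stood apart, with 49.9% to 50.9% identity to these 6. The constant genes TRGC1 and TRGC2 shared 90.1%. Reads that fit several copies equally were not counted, so the split of reads within the TRGV1 to TRGV8 subgroup and between TRGC1 and TRGC2 is less certain than the count of TRGV9.

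GENCODE 44 lists 197 such segments, and 27 of them have IDs that do not occur in the files and were not analysed here. They include TRAC, the TRA constant gene, TRBD1, TRBJ1-1 to TRBJ1-6, TRAJ36, TRAJ37 and 15 TRB V segments, so the TRA and TRB values cover only part of these loci. Reads of these 27 genes may have been counted under older IDs, since 5777 IDs of the files have no match in GENCODE 44, and the order of the loci and the sums below hold for the matched segments alone. All 16 TRG and 11 TRD segments were present. Reads counted in genes numbered 45188375 in REH and 41097497 in 697, and 50.1% and 50.2% of gene reads fell in the first of the 2 strand columns, so sense and antisense transcripts cannot be told apart. The strand columns added up to the pooled count for each of the 170 segments. Levels are given as CPM, the reads of a gene relative to the library total, with totals scaled by the trimmed mean of M-values (TMM). All intervals are 95% intervals and cover counting error only. A count of 0 allows up to 3 reads, or 0.0597 CPM in REH and 0.0812 CPM in 697. A fold given as at least sets the count of the other line over these 3 reads. It leaves out the counting error of that count, so the interval of the ratio starts lower.

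Reads in the matched T-cell receptor segments were few in both libraries and came mostly from TRG. Summed over the 170 segments, REH had 1201 reads (23.9 CPM, exact Poisson interval 22.6 to 25.3) and 697 had 121 reads (3.28 CPM, 2.72 to 3.91). The log2 ratio of these sums, REH over 697, was 2.86 (exact Clopper-Pearson interval 2.60 to 3.15), which is a 7.27-fold higher level in REH. TRG held 73.8% of these reads in REH and 95.9% in 697.

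By locus, TRG had 886 reads in REH (17.6 CPM, 16.5 to 18.8) and 116 in 697 (3.14 CPM, 2.59 to 3.77), a log2 ratio of 2.48 (2.21 to 2.78). TRD had 180 reads in REH (3.58 CPM) and 0 in 697, at least 44.1-fold higher in REH against the 3-read floor. The matched TRB segments had 90 reads in REH (1.79 CPM) and 5 in 697 (0.135 CPM), a log2 ratio of 3.60 (2.45 to 5.38). The matched TRA segments had 45 reads in REH (0.895 CPM) and 0 in 697, at least 11.0-fold higher in REH against this floor. The interval of the log2 ratio starts at 5.15 for TRD and 3.10 for TRA, below these bounds (5.46 and 3.46 in log2). At each locus the REH level lay above the 697 level by more than counting error. The loci differed in how this came about, since 1 segment carried the reads of TRD and 8 segments had at least 3 reads in TRG. The reads of the matched TRA segments, without TRAC, were scattered.

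**Figure D1:**
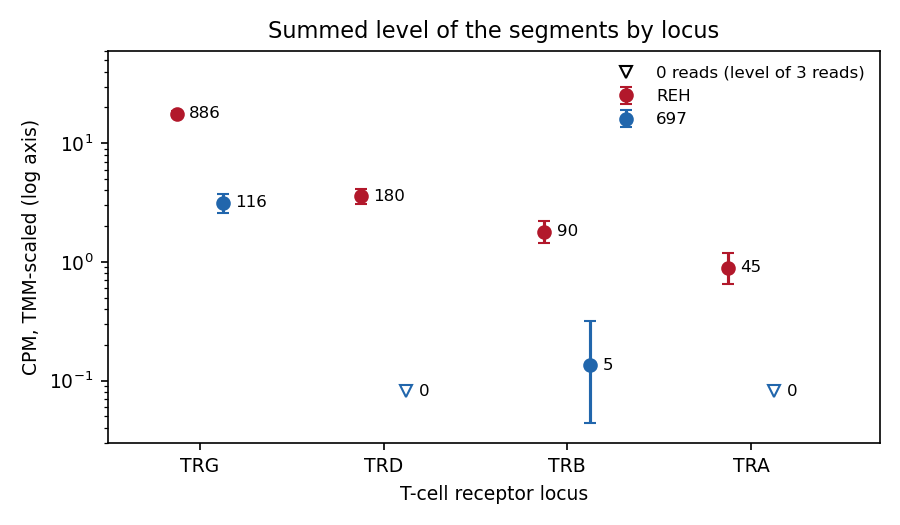
Summed level of the matched T-cell receptor segments of each locus in REH and 697, as TMM-scaled CPM on a log axis, with 95% exact Poisson intervals and the number of reads beside each point. Open triangles mark sums of 0 reads, drawn at the level of 3 reads. Over the matched segments, which do not include TRAC, TRG was highest in both lines, at 886 and 116 reads, and TRD and TRA had 0 reads in 697.

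The TRG locus lies on chromosome 7 (38239580 to 38368169, GENCODE 44 on GRCh38, minus strand), with the V segments at the higher coordinates followed by J segments and the constant genes TRGC1 and TRGC2. Its constant genes encode the part of the gamma chain that anchors it in the membrane. TRGC2 (38239580 to 38249572) had 192 reads in REH and 0 in 697, at least 47.0-fold higher in REH. TRGC1 (38257879 to 38265678) had 42 reads in REH and 0 in 697, at least 10.3-fold higher. TRGC2 thus took 82.1% of the constant reads of REH (Wilson interval 76.6% to 86.4%). Per kb of annotated exon the levels in REH were 3.77 CPM for TRGC2 (1013 bases) and 0.306 CPM for TRGC1 (2730 bases). The annotation used for the counts is not known, and other exon lengths would give another gap per kb. TARP, a protein-coding gene annotated over TRGC1 on the same strand, has no matching ID in the files and was not analysed here.

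TRG V segments were detected in both lines. TRGV9 (38317017 to 38318861), the V segment of the main gamma delta T cells of human blood, had the most reads in REH. It had 460 reads in REH (9.15 CPM, 8.33 to 10.0) and 34 in 697 (0.920 CPM, 0.637 to 1.29), a log2 ratio of 3.29 (2.81 to 3.86). TRGV8 had 45 reads in REH against 5 in 697, a log2 ratio of 2.60 (1.40 to 4.42). TRGV2 had 42 and 1 (log2 ratio 4.38, 2.39 to 10.29), and TRGV1 had 17 and 2 (log2 ratio 2.36, 0.57 to 5.80). These 4 segments were higher in REH by more than counting error. TRGV10 and TRGV11, the V segments nearest the J segments, had 0 reads in both lines, and RefSeq lists them, like TRGV1, as pseudogenes.

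Other TRG V segments did not follow this direction. TRGV5 (38349355 to 38350022) had 1 read in REH and 21 in 697, a log2 ratio of -4.29 (-10.21 to -2.20), and so was higher in 697. TRGV3 (38358512 to 38359162) had 66 reads in REH (1.31 CPM) and 36 in 697 (0.974 CPM), a log2 ratio of 0.42 (-0.18 to 1.06). For TRGV4 (38353715 to 38354517) the counts were 21 and 17, a log2 ratio of -0.15 (-1.13 to 0.87), which turned positive without TMM scaling. The sign of TRGV3 also differed between the strand columns (-0.23 in the first and 1.48 in the second), and 75.0% of its reads in 697 fell in the first (58.9% to 86.2%) against 47.0% in REH (35.4% to 58.8%). The intervals of TRGV3 and TRGV4 include 0, so a difference was not detectable at this depth, and the intervals do not show equal levels either. TRGV3 and TRGV5 are also the pair of this subgroup with the most similar coding parts.

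**Figure D2:**
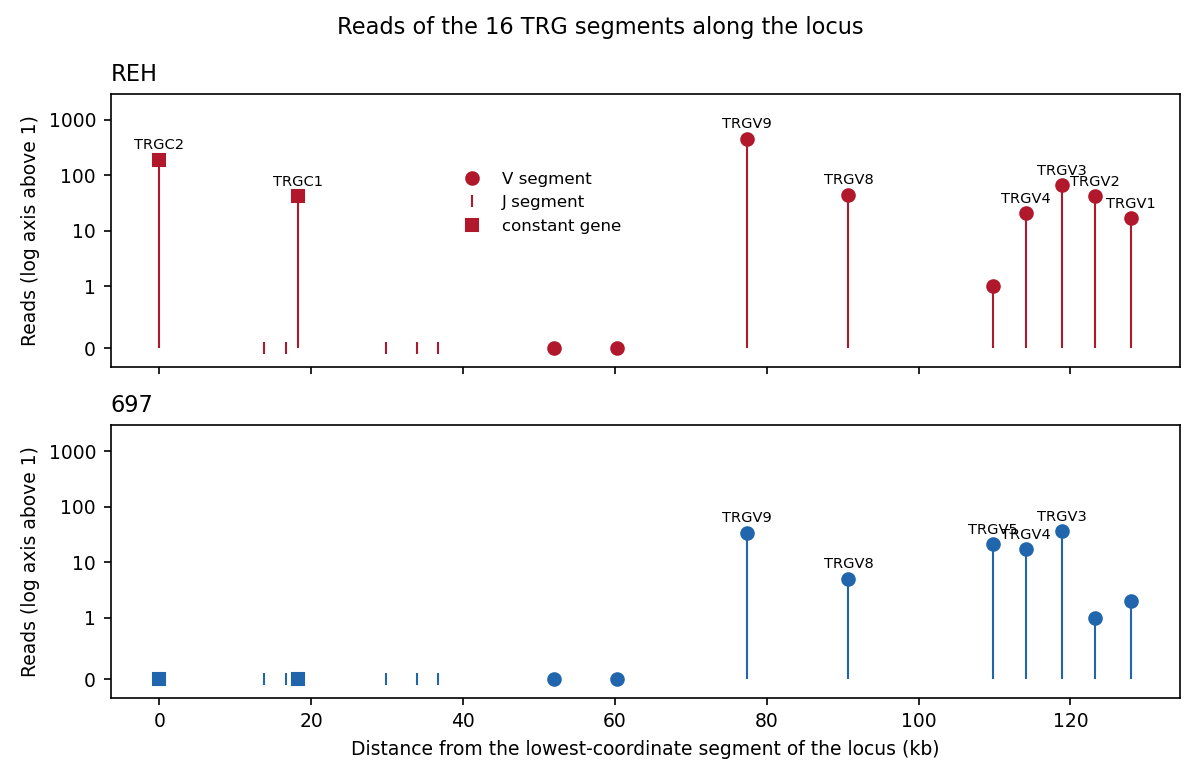
Reads of the 16 TRG segments in REH (top) and 697 (bottom), on an axis that is logarithmic above 1 read, against distance in kb from the segment with the lowest coordinate. Segments with at least 3 reads are named. TRGC2 and TRGC1 had 192 and 42 reads in REH and 0 in 697, while V segments from TRGV9 on had reads in both lines and the 5 J segments had none.

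The make-up of the TRG reads also differed within each library, a comparison that does not depend on scaling. In REH, 26.4% of TRG reads (234 of 886, Wilson interval 23.6% to 29.4%) fell in constant genes. In 697 this was 0 of 116 reads, which allows a share of up to 2.59%. TRGV9 took 70.6% of the V reads in REH (66.9% to 73.9%) and 29.3% in 697 (21.8% to 38.2%). TRGV3 took 10.1% in REH (8.04% to 12.7%) and 31.0% in 697 (23.3% to 39.9%). TRGV5 took 0.153% (0.0271% to 0.864%) and 18.1% (12.2% to 26.1%), and TRGV4 3.22% (2.12% to 4.87%) and 14.7% (9.36% to 22.2%). TRGV9 therefore held the largest share of reads in REH, whereas TRGV3 and TRGV9 had overlapping intervals in 697. These shares are not corrected for annotated exon length, which is 1735 bases for TRGV9 and 537 for TRGV3. Per kb of exon in REH, TRGV9 had 5.27 CPM and TRGV3 2.45 CPM. In 697 TRGV9 had 0.530 CPM per kb, below TRGV3 (1.81), TRGV5 (1.03) and TRGV4 (0.669). It was above TRGV8 (0.289), TRGV1 (0.116) and TRGV2 (0.0498). The intervals of the shares of TRGV9, TRGV3, TRGV5 and TRGV4 did not overlap between the lines. Those of TRGV2 did not either (4.80% to 8.59% in REH, 0.152% to 4.72% in 697), whereas those of TRGV8 and TRGV1 did. Shares within a library depend on each other, since a larger share of 1 segment lowers the rest. With 1 library each the spread between cultures is unknown.

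**Figure D3:**
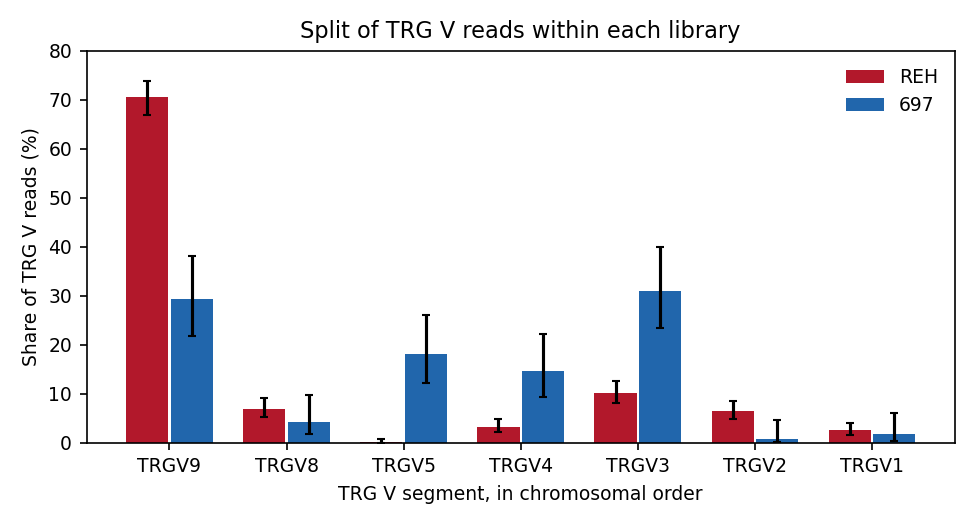
Share of all TRG V reads (%) that fell in each V segment, within REH (652 reads) and within 697 (116 reads), with 95% Wilson intervals. TRGV9 took 70.6% in REH, while in 697 the reads were spread over TRGV3, TRGV9, TRGV5 and TRGV4. Shares are of reads and are not corrected for exon length.

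The TRG locus also holds V pseudogenes, which are not members. Of these, TRGV7 had 154 reads in REH and 2 in 697, TRGV6 had 28 and 1, TRGV5P had 16 and 19, and TRGVA had 6 and 0. TRGV7 was therefore counted more often in REH than each TRG V member other than TRGV9. These counts are not corrected for length, and the annotated exons span 353 bases for TRGV7 against 1735 for TRGV9. TRG-AS1, a lncRNA annotated on the opposite strand, overlaps 5 members (TRGV1 to TRGV5). It has no matching ID in the files, and its part in the counts of these segments was not tested. The lncRNA ENSG00000272908 lies between TRGV9 and TRGV8 on the strand of the locus and had 243 reads in REH against 8 in 697, a log2 ratio of 4.40 (3.48 to 5.71). TRGV9, TRGV8, TRGC1 and TRGC2 have no annotated gene on the opposite strand.

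The TRD locus is nested within TRA on chromosome 14. All of its reads came from TRDV2 (22422371 to 22423042, plus strand), the V segment that pairs with TRGV9 in most gamma delta T cells of blood. TRDV2 had 180 reads in REH (3.58 CPM, 3.08 to 4.14) and 0 in 697. This is at least 44.1-fold higher in REH against 3 reads, and the interval of the log2 ratio starts at 5.15. Per kb of exon TRDV2 had the highest level of the member segments tested, 6.89 CPM in REH (5.92 to 7.97), a ranking that leaves out the V pseudogenes. TRGV9 had 5.27 CPM (4.80 to 5.78), and the median was 5.51 CPM over protein-coding genes that had 10 reads or more in REH. The annotated exons of TRGV9 span 1735 bases, of which 366 are coding, and another length would give another level per kb. The remaining 10 TRD segments, including the constant gene TRDC, 3 D and 4 J segments, had 0 reads in both lines. Thus V reads stood without constant reads in TRD of REH, as they did in TRG of 697. In the strand columns, 124 of the 180 TRDV2 reads of REH (68.9%, Wilson interval 61.8% to 75.2%) fell in the first strand column, away from the even split over all genes. TRD-AS1, a lncRNA on the opposite strand that overlaps TRDV2, had 41 reads in REH and 0 in 697, and its part in the TRDV2 count was not tested.

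In TRB (chromosome 7), the reads were led by TRBV20-1 (142626649 to 142627399, plus strand), a V segment that is frequently used by alpha beta T cells. It had 52 reads in REH (1.03 CPM, 0.773 to 1.36) and 0 in 697. This is at least 12.7-fold higher in REH against 3 reads, and the interval of the log2 ratio starts at 3.32. Of its reads, 67.3% fell in the first strand column (53.8% to 78.5%). Another 12 TRB segments had 38 reads together in REH, with 9 at most (TRBV7-3), and 5 reads in 697. The constant gene TRBC2 had 2 reads in REH and 1 in 697, and TRBC1 had 0 in both, which does not exceed the 3-read floor. The coding parts of TRBC1 and TRBC2 shared 95.5% of aligned positions. Reads that fit both equally were not counted, so these low counts do not show that TRB constant transcripts were absent. The 8 matched J segments, all of the TRBJ2 cluster, had 0 reads. TRBV20OR9-2, a copy of a V segment on chromosome 9 outside the locus, also had 0 reads.

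Reads in the matched TRA segments were thin and spread out. In REH, 45 reads fell in 28 of the 99 segments, 19 of which had a single read, and the highest was TRAV8-4 with 7. The V segments together had 24 reads, led by TRAV8-4 and TRAV27 (3 reads), and the J segments 21 reads over 15 segments, led by TRAJ27 with 4. In 697 each of the 99 segments had 0 reads. The 5 TRAV segments that can also join to delta segments, counted here with TRA, had 2 reads in REH. TRA was the locus in which J segments were counted, whereas the J segments of TRB, TRG and TRD were at 0 in both lines. No single matched TRA segment reached 10 reads, so the difference between the lines in these segments rests on the sum. TRAC was not matched and has no known count here, so the level of the whole TRA locus is open, as is its rank among the loci.

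To compare segments with the rest of the transcriptome, a gene counted as tested when either line had 10 reads or more, and as called when its log2 ratio was 2 or more in size, or 4-fold. Of the 170 segments 11 were tested, 9 of them in TRG, and 119 had 0 reads in both lines. Called higher in REH were 8 of the 11 (TRGC1, TRGC2, TRGV1, TRGV2, TRGV8, TRGV9, TRDV2 and TRBV20-1), beside 12.5% of all 19145 genes tested. Called higher in 697 was 1 (TRGV5), beside 8.15% of all genes, and in either direction 20.7% of all genes were called. The median log2 ratio of the 11 segments was 3.29, against 0.05 over all genes tested. Of the 11 segments, 8 reached 10 reads in 1 line only and entered this set through the line in which they are high, while TRGV9, TRGV3 and TRGV4 reached it in both, so these values describe the 11 segments and not the 170. The lowest of the ratios called in REH, those of TRGV1 and TRGV8, had intervals that reach below 2, and with 5 reads added to each count both fell under the threshold.

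**Figure D4:**
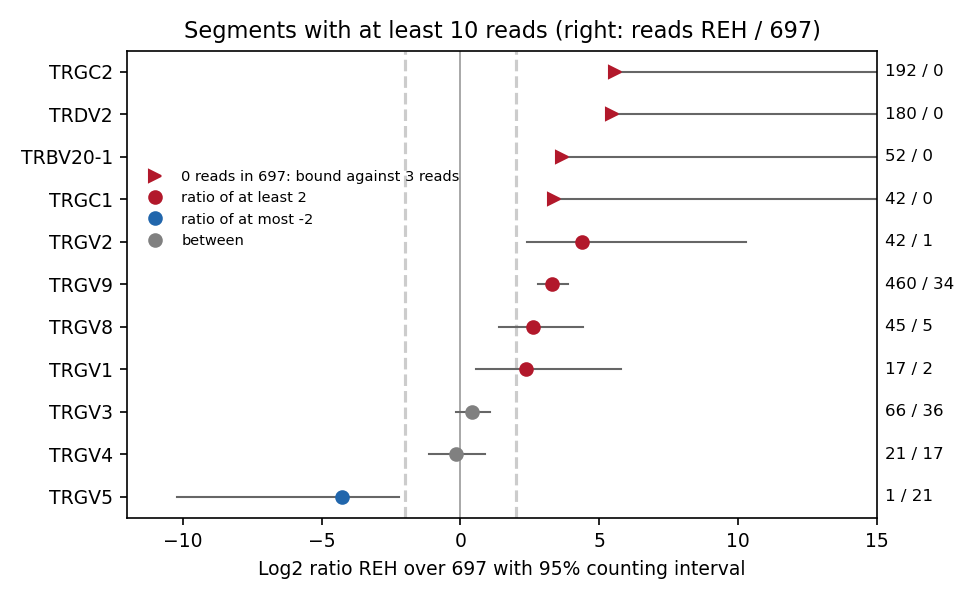
Log2 ratio REH over 697 of the 11 segments that had 10 reads or more in either line, with 95% counting intervals and the reads of each line at the right. Dashed lines mark the threshold of 2 in size. Arrows mark segments with 0 reads in 697, drawn from their bound against 3 reads and not from a counting interval. TRGV5 is the segment called higher in 697, and the intervals of TRGV3 and TRGV4 include 0.

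Genes of other types inside the loci or within 100 kb of them were listed by position. Of 40 such genes 12 were tested, 6 were called higher in REH and 0 higher in 697. Beside TRA, ABHD4, a lipid hydrolase gene, had 12700 reads in REH against 137 in 697, a log2 ratio of 6.09 (5.85 to 6.34), and SALL2, a zinc finger gene at the other end of the locus, had 1055 and 1. DAD1, which adjoins the 3′ end of TRA and encodes a subunit of the oligosaccharyl transferase, had 4608 and 1380 (log2 ratio 1.29). Beside TRB, EPHB6, a receptor of the ephrin family, had 1176 and 401 (log2 ratio 1.11) and MGAM2 146 and 5. Beside TRG, STARD3NL, a cholesterol-binding protein gene next to TRGC2, had 2726 and 1690 (log2 ratio 0.25, 0.16 to 0.33), and AMPH at the other end had 20 and 9. The coding genes on either side of TRG therefore differed far less between the lines than TRGC2 or TRGV9.

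Genes whose products work with the T-cell receptor were described next. The counts in this and the later lists stand beside 12.5% of all genes tested called higher in REH and 8.15% called higher in 697. Of the 5 genes of the receptor complex, 3 were tested, with 2 called higher in REH and 0 higher in 697, and a median log2 ratio of 2.07. CD3E had 45 reads in REH and 0 in 697, and CD247, the zeta chain, had 498 and 87 (9.91 and 2.35 CPM, log2 ratio 2.07, 1.74 to 2.42). CD3D had 0 reads in both lines and CD3G 2 and 1. The surrogate alpha chain PTCRA had 14 reads in REH against 35 in 697, a log2 ratio of -1.74 (-2.77 to -0.84). CD3D and CD3G were thus at or under the 3-read floor in both lines.

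Among 14 signalling genes, 12 were tested, 3 were called higher in REH and 1 higher in 697, with a median log2 ratio of 0.11. The adaptor LCP2 was higher in 697 (7.10 against 77.6 CPM, a log2 ratio of -3.45). The kinases SYK (342 and 121 CPM) and ZAP70 (33.8 and 61.5 CPM), of which SYK also serves the pre-B cell receptor, were below the threshold. The adaptor TRAT1 had 14 reads in REH and 0 in 697, at least 3.43-fold higher in REH.

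Of 7 transcription factors of the T lineage, 6 were tested, 1 was called higher in REH and 2 higher in 697, with a median log2 ratio of -0.98. TCF7 had 477 reads in REH against 6 in 697, a log2 ratio of 5.75 (4.74 to 7.32). GATA3 (41 and 203 reads, log2 ratio -2.74) and TOX (34 and 553, log2 ratio -4.45) were higher in 697. BCL11B, which sets T-cell commitment, reached 22.7 CPM in REH and 50.02 CPM in 697. The direction of the receptor segments was therefore not shared by this group.

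Genes of V(D)J recombination were measured in both lines. All 15 were tested, 0 were called higher in REH and 1 higher in 697, with a median log2 ratio of -0.30. RAG1, the catalytic subunit, reached 1535 CPM in REH and 577 CPM in 697, RAG2 155 and 190 CPM, and DNTT, which adds untemplated bases at junctions, 1142 and 4433 CPM. The gene called was the polymerase gene POLL, with 16 reads in REH against 947 in 697, a log2 ratio of -6.29. The end-joining factor NHEJ1 was low in both lines, at 0.637 and 0.704 CPM.

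**Figure D5:**
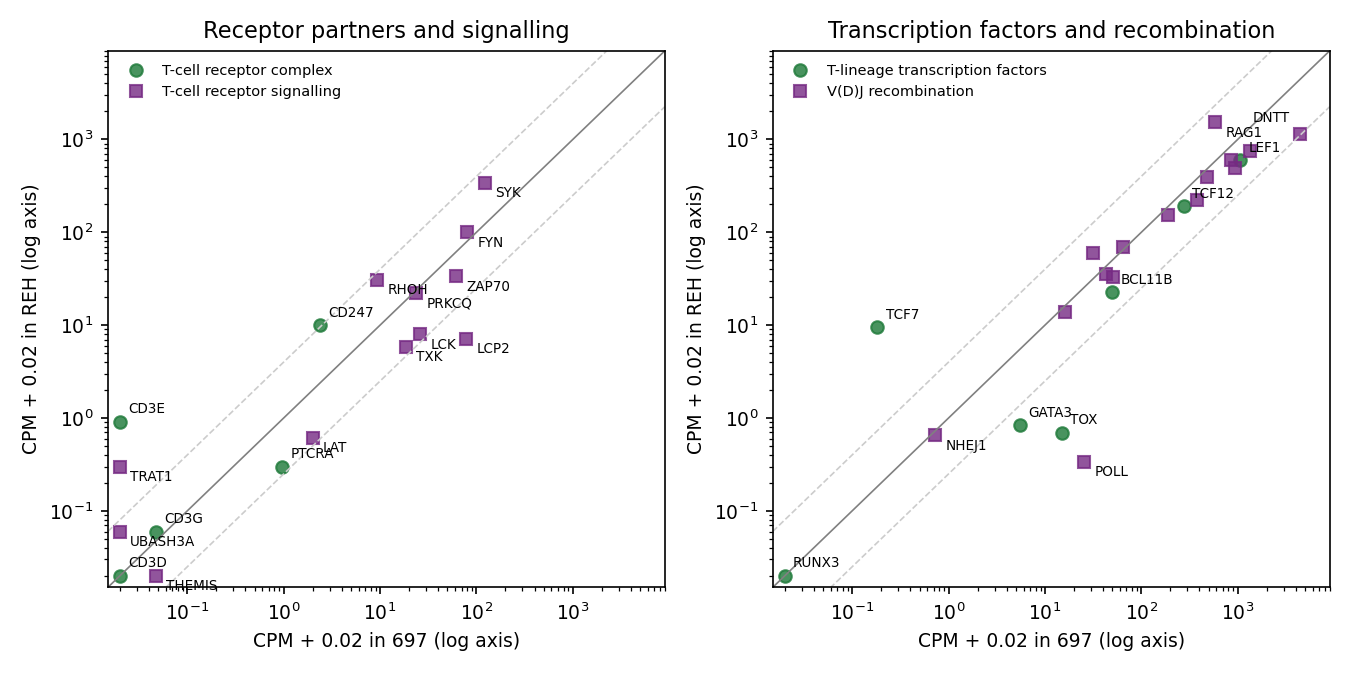
CPM (plus 0.02, log axes) in REH against 697 of the genes reported here of the T-cell receptor complex and signalling (left) and of T-lineage transcription factors and V(D)J recombination (right). The solid line marks equal levels and the dashed lines a 4-fold difference. CD3E, CD247, TRAT1 and TCF7 lay above the band and LCP2, GATA3, TOX and POLL below it, and unnamed points are recombination genes within 2-fold.

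The label of the lines was checked against cell type markers. Of 12 B-cell precursor markers 11 were matched and tested, with a summed level of 3408 CPM in REH and 4070 CPM in 697, and CD79A at 655 and 287 CPM. Of these markers 1 was called higher in REH, CD79B (481 and 120 CPM), and 2 higher in 697, which were CD9 (50.8 and 316 CPM) and VPREB1, a chain of the surrogate light chain of pre-B cells. VPREB1 had 3 reads in REH, no more than the floor, against 10039 in 697. Of 12 T-cell markers 5 were at 0 in both lines (CD3D, CD2, CD7, CD4 and CD8B), and their summed level of 24.2 and 50.3 CPM came mostly from BCL11B. Of the 5 T-cell markers tested, CD3E, TRAT1 and CD28 (10 and 1 reads) were called higher in REH, as most receptor segments tested were, and CD8A (0 and 10 reads) higher in 697. Their part in the segment counts was not tested. Of 9 NK-cell markers 3 were at 0 in both lines (NCAM1, NCR1 and GZMB). NKG7 had 123 and 542 reads, PRF1 53 and 6, KLRB1 21 and 11 and GNLY 6 and 1. Summed NK-cell markers were 4.08 and 15.2 CPM. Myeloid markers summed to 261 CPM in REH, of which MPO made 252 CPM, and to 2.30 CPM in 697, and ELANE was at 0 in both. Of the 5 myeloid markers tested 3 were called higher in REH, namely MPO, ITGAM (403 and 0 reads, at least 98.7-fold) and CD33 (22 and 1 reads), and 0 higher in 697. Erythroid markers summed to 0.418 and 0.379 CPM.

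Immunoglobulin segments, of which the same recombinase joins V, D and J in the B lineage, were set beside the T-cell receptor segments as a scale. The 195 matched immunoglobulin segments had 38640 reads in REH and 72846 in 697. This is 32.2 times and 602 times the reads of the matched T-cell receptor segments in each line, which do not include TRAC. The summed immunoglobulin level was lower in REH (769 CPM, log2 ratio -1.36, -1.38 to -1.34). This direction came from IGH alone, with 33355 reads in REH and 72709 in 697, whereas IGL (5233 and 126 reads, log2 ratio 4.93) and IGK (52 and 11 reads, log2 ratio 1.75) were higher in REH.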

How the data were processed

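RNA-seq data of REH and 697 cells were used, with 1 library per line, so the labels give no replicates. The authors deposited raw counts for each gene, as reads on either strand and on each strand alone. Per the study's methods the libraries were poly(A)-selected TruSeq libraries, whereas the labels describe ribodepleted, stranded ones. The authors counted uniquely mapped reads with STAR. The methods name hg38 and the submitters' processing notes hg19, and the annotation release and read length are not given in the sources used here. Since the build is unsettled, positions and lengths are those of GENCODE 44 on GRCh38, not coordinates of the authors, and no sequence was read by coordinate. Sequences came from the GENCODE 44 transcripts by gene ID.

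IDs were matched to GENCODE 44 without version (51996 of 57773 matched). Rows of unmapped, multimapping (10.8% of reads in REH, 15.4% in 697), unassigned (12.7% and 9.32%) and ambiguous reads were left out of totals. The column of both strands was used. Library totals were TMM-scaled with edgeR 4.0.16 under R 4.3.3 (factors 1.11 for REH and 0.899 for 697) over the 19145 genes that had 10 reads or more in either library. Ratios are on the log2 scale, REH relative to 697, with 0.5 reads added to both counts. With 0 reads in 1 line, the fold is a bound against 3 reads that takes the count of the other line as exact. No ratio is given where both lines had 3 reads or fewer. Counting intervals were exact Poisson for levels, Clopper-Pearson for ratios and Wilson for shares, and reads are not independent molecules. The procedure was tested on simulated data with independent reads. The genes changed there had higher expected counts than most segments, so the test does not show how well changes at low counts are recovered.

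The members and gene lists were chosen with earlier results of these data known. Named were every constant and D segment, the 5 V and 5 J segments with the most reads per locus and line, other segments with at least 10 reads, and the listed and neighbouring genes. Some listed genes are counted in their list's totals but not reported here by name. TRBV20OR9-2 and the pseudogenes fall outside this rule and were chosen after their values were seen. The alternatives were DESeq2 1.42.0 size factors, unscaled totals, each strand column, another pseudocount, other minimum read numbers, another threshold, added pseudogenes and omission of the leading segment. Other steps ran in Python 3.11.15, with intervals from scipy 1.17.1 and plots from matplotlib 3.10.9.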

Additional observations from a re-analysis of the deposited data

How the results depend on the processing

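No paired analysis was possible because the design holds a single library for REH and for 697, and for the same reason no replicate could be left out. Each sum by locus and the median of the 11 segments kept the higher level in REH under every alternative that gave a value. Without TMM scaling every log2 ratio shifted by 0.31, to 3.17 for all segments and 2.79 for TRG, and no call changed. With DESeq2 size factors no call changed either. In the second strand column the log2 ratio was 3.16 for all segments and 2.87 for TRG. The bounds of loci with 0 reads in 697 shrink with the reads of a single strand, from log2 5.46 to 4.94 and 3.80 for TRD and from 3.46 to 2.74 and 2.16 for TRA. Without TRGV9 the TRG ratio was 1.93, under the threshold of 2, and without TRBV20-1 the TRB ratio was 2.36. Without TRDV2 no TRD read was left and no value could be given.

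The number of segments called higher in REH was 17 with a minimum of 1 read (51 segments tested) and 4 with a minimum of 50 reads (5 tested). The number called higher in 697 was 0 with a minimum of 50 reads and 0 in the second strand column, since TRGV5 no longer reached the minimum. Segments detected numbered 51 in REH and 11 in 697 at 1 read, and 10 in REH at 10 reads, against 20 and 5 at 3 reads. Of 55 recomputed single ratios 49 stayed within their counting interval and 6 left it. These were the 4 segments with 0 reads in 697 when 5 reads were added, and TRGV3 in each strand column (-0.23 and 1.48). Depth limits the single segments, since 11 of the 170 had 10 reads or more in either line.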
